A study of Mus musculus with 12 samples.

Results

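The transcripts that write, maintain and remove DNA methylation were followed in P19, a line of mouse embryonal carcinoma cells used as a model of neural differentiation under retinoic acid. The set holds 8 genes, chosen by name: the DNA methyltransferases Dnmt1, Dnmt3a, Dnmt3b and Dnmt3l, the maintenance cofactor Uhrf1, and the dioxygenases Tet1, Tet2 and Tet3. A read belonged to the set when it carried the quality tag PASS, was classed as mRNA and was assigned to 1 of these gene symbols. This gave 1452 reads on 7 of the 8 genes, out of 4274320 kept reads on 14042 genes, and Dnmt3l had no read.

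All samples were wild-type P19 cells. The day 0 (D0) samples were kept in serum-containing medium without retinoic acid, and the D2, D4 and D6 samples had spent 2, 4 or 6 days in NDiff 227 medium with 500 nM retinoic acid. Each day had 3 replicates, described by the study as biological, and all 12 libraries came from the same cell line. The added retinoic acid, the change of medium and the time in culture moved together and cannot be told apart. Native poly(A) RNA was read directly on nanopores, so a read is 1 RNA molecule and also gives the length of its tail. Alignments were tallied, and 0.0558% of those kept repeated a read already counted.

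DNA methylation in mammals is placed on CpG sites by de novo enzymes and copied after replication by a maintenance enzyme. DNMT3A and DNMT3B are the de novo methyltransferases, with DNMT3L as a catalytically inactive partner, while DNMT1 acts on hemimethylated DNA, to which UHRF1 recruits it. TET enzymes oxidize 5-methylcytosine, a step from which base excision repair or replication can lead back to unmethylated cytosine. DNMT3B and TET1 are known as abundant in pluripotent cells, and DNMT3A as the main de novo enzyme of the brain.

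Library depth ranged from 120326 kept reads in D2 replicate 1 to 613756 in D0 replicate 2, and the set held 32 to 76 reads in each D2 library against 246 to 250 in each D0 library. Levels are given in CPM, reads of a gene per 1000000 reads of the library, whose total was scaled by the trimmed mean of M-values. Without this scaling the median log2 fold change of all genes was 0.13 for D2, 0.12 for D4 and 0.26 for D6 in place of values near 0. The labelled change of cell type was seen in the marker genes. The summed level of 12 pluripotency markers lay between 1938 and 2242 CPM in the D0 libraries, most of it from Pou5f1 (1703 ± 148). It lay between 0 and 24.5 at D2, between 4.17 and 4.73 at D4 and between 10.4 and 14.2 at D6. Esrrb went from 0.700 at D0 to 8.13 at D6. The summed level of 12 neural markers rose from 582 to 613 at D0 to 3617 to 3930 at D6. Zfp42, Dppa5a and Fgf4, which define naive or early pluripotent cells, had no read on any day. Endoderm markers stayed between 18.7 and 48.8 CPM over all libraries with Gata4, Sox17 and Afp at 0, mesoderm markers lay between 8.40 and 12 at D0, at 0 at D2 and D4 and between 0 and 2.71 at D6 with T, Mesp1, Hand1 and Myh6 at 0, and glial markers between 0 and 40.9 with Aqp4, S100b and Olig1 at 0. In bulk RNA, fewer cells of a type and less RNA per cell cannot be told apart.

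Of the 6 genes with enough reads to test, Dnmt3b was far lower than at D0 on every later day, Dnmt3a was lower on every later day, Tet1 was lower at D4 and D6, Uhrf1 was lower on D6 alone among the 3 days set against D0, and no change of Dnmt1 or Tet3 against D0 passed the test. At least 30 reads over the libraries were needed for the test, which 6 of the 8 genes had (not Tet2 and Dnmt3l). In limma-voom with Benjamini-Hochberg adjustment over all 9309 genes tested, 2 of the 6 were called at D2 against D0, 3 at D4 and 4 on D6, all of them lower. Dnmt3b had 228 of its 246 reads at D0 and Tet1 38 of its 54. Both reached 30 reads only through D0, which favours a lower call. Among all genes tested, 6.11% were called lower at D2, 12.5% at D4 and 18.8% at D6, and 4.69%, 12.9% and 19% were called higher. That split moved with the scaling: without a scaling factor 720 genes were called higher and 373 lower at D2 (437 and 569 with it), 1537 and 921 at D4 (1199 and 1165), and 2588 and 1162 at D6 (1765 and 1751). The libraries of Dnmt3a, Dnmt3b and Tet1 lay wholly below those of D0 on each later day and those of Uhrf1 at D6, as did those of 18.2%, 19.6% and 24.0% of all genes tested at D2, D4 and D6.

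**Figure D1:**
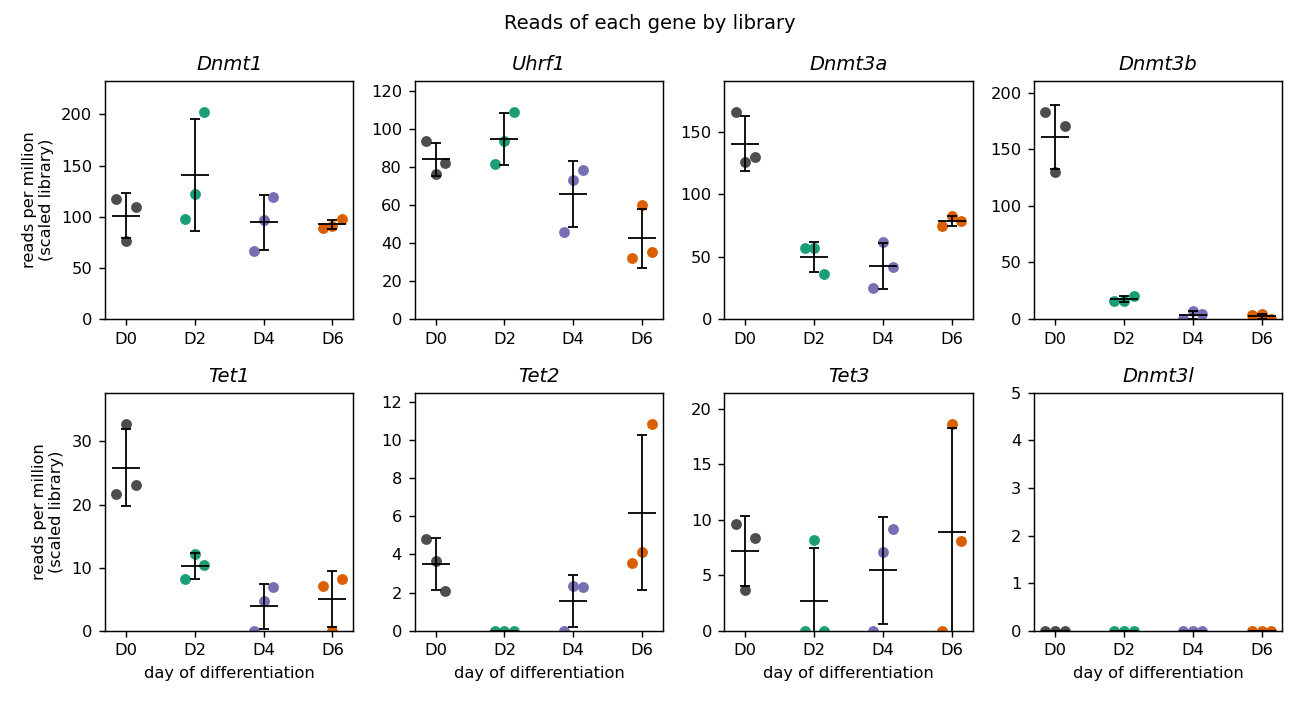
Level of each of the 8 genes in CPM of the scaled library (y axis, from 0) at D0, D2, D4 and D6 (x axis). Each point is 1 library and the bar with whiskers is the mean ± SD of 3 libraries. Dnmt3b falls from a mean of 161 to 2.57 CPM, Dnmt3a is lowest at D4, and Dnmt3l is at 0 throughout.

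Dnmt3b (chromosome 2, 153649450 to 153687730, plus strand, mm10) encodes a de novo methyltransferase of the early embryo. It had 76, 71 and 81 reads in the 3 D0 libraries, which correspond to 183, 129 and 170.1 CPM. At D2 it had 2, 4 and 4 reads, at D4 0, 3 and 2, and at D6 1, 2 and 0. Every later library lay far below every D0 library, and the highest later value was 20.7 CPM. The D0 mean was 161 ± 27.8 CPM, and the means on D2, D4 and D6 were 17.8 ± 2.57, 3.90 ± 3.60 and 2.57 ± 2.24 (SD, n = 3 each). The log2 fold change against D0 was -2.95 ± 0.44 (SE) at D2 (limma adjusted p = 4.5e-07), -4.97 ± 0.58 at D4 (adjusted p = 2.37e-10) and -5.54 ± 0.62 at D6 (adjusted p = 3.65e-11). In limma-trend the D2 change of -3.13 had an adjusted p of 0.0513, and without D6 replicate 3, which had no Dnmt3b read, the D6 change was -4.88. With 3 reads left at D6, the pooled D0 level was 59.7 times the D6 level, with a 95% counting interval from 20.2 to 292, which covers counting error only. In the order of days D0 came first and D2 second. D4 lay below D2 in all libraries, but the D4 against D2 change of -2.02 ± 0.70 on the log2 scale had an adjusted p of 0.107 in limma-voom, and D4 and D6 overlapped. The closely related paralog Dnmt3c had 1 line in the whole table, and it did not pass the quality tag.

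Dnmt3a (chromosome 12, 3806007 to 3914443, plus strand) encodes the other catalytic de novo enzyme. It had 69, 69 and 62 reads at D0, 7, 14 and 7 at D2, 6, 26 and 18 at D4, and 21, 40 and 29 on D6. The corresponding levels were 166, 126 and 130.2 CPM at D0, 57.0, 57.1 and 36.3 at D2, 25.0, 61.5 and 41.5 at D4, and 74.8, 83.0 and 78.6 at D6. The D0 libraries stood above all others, and the D6 libraries stood between D0 and the earlier days without overlap with either. The decrease against D0 was -1.43 ± 0.30 on the log2 scale at D2 (limma adjusted p = 0.000353), -1.64 ± 0.25 at D4 (adjusted p = 4.28e-07) and -0.79 ± 0.20 at D6 (adjusted p = 0.00133), so the D6 level was 0.579 of the D0 level. With every library thinned to the size of the smallest, the D6 change of -0.77 had a limma adjusted p of 0.104. D2 and D4 did not differ beyond their spread (log2 fold change -0.21 ± 0.35, limma adjusted p = 0.836).

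The later return of Dnmt3a was the single call among the 6 tested genes for D6 against D4, with a log2 fold change of 0.85 ± 0.28 (limma-voom, adjusted p = 0.0394), against 4.04% of all genes called higher in that comparison. This call was lost when D4 replicate 1, D4 replicate 3, D6 replicate 2 or D6 replicate 3 was left out, with values from 0.67 to 0.90 on the log2 scale. It was also lost without a filter on low counts (limma adjusted p = 0.0603), in limma-trend (adjusted p = 0.0887) and with every library thinned to the smallest (limma adjusted p = 0.140), and it was made in 14 of the 22 alternatives. In the 4 sequencing runs of D6, Dnmt3a ranged from 51.3 to 153 CPM of the kept reads without scaling, the smallest of them holding 52385 reads, against 44.3 to 46.8 in the 3 runs of D4. For D4 against D2 limma-voom called 0 of the 6 genes, against 3.12% of all genes, and 2 of the 6 had an unadjusted p under 0.05 (Dnmt3b and Dnmt1), while limma-trend called 0 as well.

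Dnmt3l, the cofactor without catalytic activity, had 0 of 4274320 kept reads, which allows up to 0.702 CPM over all libraries, and up to 24.9 CPM in the shallowest library, D2 replicate 1. It also had no line at other quality tags.

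**Figure D2:**
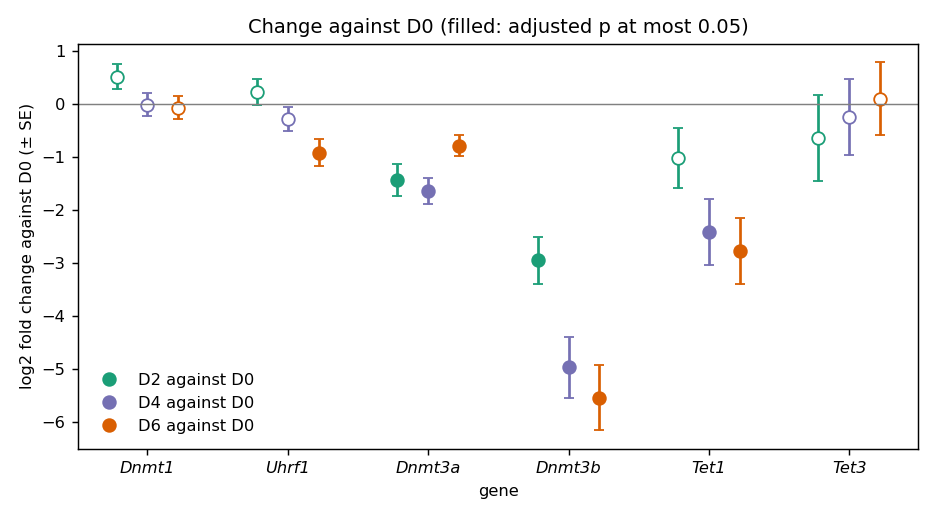
Log2 fold change of D2, D4 and D6 against D0 (y axis, point ± SE from limma-voom, 3 libraries per day) for the 6 genes with at least 30 reads (x axis). Filled points have an adjusted p of at most 0.05; Dnmt3b reaches -5.54 at D6, and the 3 points of Dnmt1 and of Tet3 are open.

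Of the maintenance genes, Uhrf1 was called at D6 against D0 and Dnmt1 on no day. Dnmt1 (chromosome 9, 20907209 to 20959888, minus strand), which copies methylation patterns onto newly replicated DNA, had 49, 42 and 52 reads at D0, 12, 30 and 39 at D2, 16, 41 and 52 at D4, and 25, 44 and 36 on D6. Its levels were 118, 76.6 and 109 CPM at D0 and 89.0, 91.3 and 97.6 at D6, and the D0 libraries overlapped those of every later day. The log2 fold changes against D0 were 0.51 ± 0.23 at D2, -0.01 ± 0.22 at D4 and -0.07 ± 0.21 at D6 (limma adjusted p = 0.160, 0.971 and 0.824). The pooled D6 to D0 ratio was 0.935, and its counting interval of 0.719 to 1.21 leaves room for a moderate change in either direction. D2 had the highest mean, 141 ± 54.7 CPM, set mainly by replicate 3 at 202. D4 against D2 was -0.53 ± 0.25 on the log2 scale with overlapping libraries and was not called (limma adjusted p = 0.272), while the pooled ratio of 0.688 had a counting interval of 0.512 to 0.929.

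Uhrf1 (chromosome 17, 56303321 to 56323486, plus strand) encodes the reader of hemimethylated CpG sites that brings DNMT1 to replicating DNA. It had 39, 42 and 39 reads at D0, 10, 23 and 21 at D2, 11, 31 and 34 at D4, and 9, 29 and 13 on D6. Levels at D0 were 93.8, 76.6 and 81.9 CPM and at D6 32, 60.2 and 35.2, so that all 3 D6 libraries lay below all D0 libraries. At D2 (94.7 ± 13.8) and D4 (65.8 ± 17.5) the libraries overlapped those of D0 (84.1 ± 8.80, SD, n = 3 each). Uhrf1 fell by 0.92 ± 0.26 on the log2 scale at D6 (limma adjusted p = 0.0034), while the changes of 0.22 ± 0.25 at D2 and -0.29 ± 0.23 at D4 had adjusted p of 0.644 and 0.390 in the same limma fit. With thinned libraries the D6 change of -0.74 had a limma adjusted p of 0.226. The step from D4 to D6 alone was -0.63 ± 0.28 (limma adjusted p = 0.163).

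The ratio of Uhrf1 to Dnmt1 reads was followed within each library, where depth cancels, with 0.5 reads added to each count. Its log2 value was -0.33, 0.00 and -0.41 at D0 and -1.42, -0.59 and -1.43 at D6. The 3 D6 libraries were all lower, by 0.91 on average, and the exact permutation test gave p = 0.1, the smallest that 3 libraries against 3 can give. For Dnmt3a to Dnmt3b the log2 ratio was -0.14, -0.04 and -0.38 at D0 and 3.84, 4.02 and 5.88 at D6. D6 replicate 3 and D4 replicate 1 had no Dnmt3b read, so their values of 5.88 and 3.70 are set by the added 0.5 reads. With the 3 reads that a count of 0 allows, the log2 ratio is at least 3.27 in the former and at least 1 in the latter, above every D0 library. The mean with 0.5 added was -0.19 ± 0.18 at D0, and 1.34 ± 0.52, 3.17 ± 0.46 and 4.58 ± 1.13 on the 3 later days (SD, n = 3 each; exact permutation p = 0.1 for each later day against D0, again the smallest possible). The D6 against D0 difference of 4.77 was 4.12 without D6 replicate 3. Pooled over libraries, Dnmt3a reads outnumbered Dnmt3b reads 90 to 3 at D6 against 200 to 228 at D0.

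Among the dioxygenases Tet1, which oxidizes 5-methylcytosine at CpG-rich promoters of pluripotent cells, was the one with a called change. Tet1 (chromosome 10, 62804570 to 62908996, minus strand) had 9, 18 and 11 reads at D0, 1, 3 and 2 at D2, 0, 2 and 3 at D4, and 2, 0 and 3 on D6. Every later library lay below every D0 library. The D0 mean of 25.8 ± 6.08 CPM was followed by 10.2 ± 2.05, 3.88 ± 3.53 and 5.08 ± 4.43 on D2, D4 and D6 (SD, n = 3 each). Tet1 was lower by a log2 fold change of -2.41 ± 0.63 at D4 (limma adjusted p = 0.00225) and -2.78 ± 0.63 at D6 (adjusted p = 0.000264), and the value of -1.02 ± 0.57 at D2 was not called (adjusted p = 0.273). Without D6 replicate 2, which had no Tet1 read, the D6 change was -1.52 and was still called. The pooled D6 to D0 ratio was 0.167, with a counting interval from 0.0515 to 0.426. In limma-trend the adjusted p of Tet1 was 0.0666 at D4 and 0.0637 at D6. D4 and D6 held 5 reads each and did not differ beyond their spread.

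Tet3 (chromosome 6, 83362373 to 83459084, minus strand), known from the zygote and from neurons, had 4, 2 and 4 reads at D0, 0, 2 and 0 at D2, 0, 3 and 4 at D4, and 0, 9 and 3 on D6. The log2 fold change at D6 was 0.10 ± 0.68 (limma adjusted p = 0.927), and the pooled D6 to D0 ratio of 1.53 had a counting interval from 0.605 to 3.95, so a change of moderate size was not detectable at this depth. Tet2 (chromosome 3, 133463679 to 133545139, minus strand), which lacks the CXXC domain of the other Tet proteins, had 2, 2 and 1 reads at D0, none at D2, 0, 1 and 1 at D4, and 1, 2 and 4 on D6. With 14 reads in all it was not tested. The ratio of Tet3 to Tet1 is not given by library, because D4 replicate 1 had no read of either gene, D2 replicates 1 and 3 and D6 replicate 1 none of Tet3 and D6 replicate 2 none of Tet1. Pooled by day, there were 10 Tet3 and 38 Tet1 reads at D0, and 12 and 5 at D6. The order at D6 rests on replicate 2, with 9 Tet3 reads and no Tet1 read. Replicates 1 and 3 had 0 and 3 Tet3 reads beside 2 and 3 Tet1 reads.

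The sequencing runs gave a further view, although each of the 13 runs held libraries of 1 day. In the 3 runs of D0, Dnmt3b had 139 to 152 CPM of the kept reads without scaling, in the 3 runs of D2 0 to 27.3, in the 3 runs of D4 3.47 to 5.85, and in the 4 runs of D6 0 to 19.1. Uhrf1 lay at 68.3 to 85.7 in the runs of D0 and at 38.2 to 68.4 in those of D6, which meet at their edges. Small runs set both D6 edges of Uhrf1, with 2 reads in a run of 52385 and 4 in a run of 58490. The highest Dnmt3b values were 3 reads in a D2 run of 109773 and 1 read in the D6 run of 52385. No run held 2 days, so day and run cannot be told apart. Days were taken from the library names in the table, which match the sample labels. In the run names, D2 stands beside the word undifferentiated for the 3 D0 runs, and 2 of the 4 D6 runs have no day in theirs.

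The 3′ ends of the reads were spread over several sites in Dnmt3a and over 1 site in each of the other genes. The other 6 genes with reads ended almost wholly at 1 site each: 436 of 438 Dnmt1 reads, 246 of 246 Dnmt3b reads, 295 of 301 Uhrf1 reads, 50 of 54 Tet1 reads, 14 of 14 Tet2 reads and 28 of 31 Tet3 reads ended at or near the last annotated base. No read at these sites, or at the Dnmt3a site at 6694 nt, lay on a transcript model that goes on for 50 nt. Ends further out could therefore not be seen there. Dnmt3a reads ended at 10 sites with at least 10 reads each, between 95 and 6694 nt after the stop codon, and these sites held 361 of its 368 reads. Ends within 20 nt of each other were taken as 1 site. The reads that define the nearest site, 95 nt after the stop codon, lay in part on a transcript model that stops there (7 of 17 were on models that go on), so a longer end of those reads would not be seen.

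The last 30 bases before the most used base of a site are shown for 4 Dnmt3a sites on both sides of the gap in its ends and for the single site of Dnmt3b, with the polyadenylation hexamer (AATAAA or its variant ATTAAA) in capitals where present. They run 5′ to 3′ on the transcript strand, from the GENCODE transcript models on mm10.
Dnmt3a, 1250 nt after the stop codon (chr12:3908968-3908997, plus strand, 65 reads): tggagcaAATAAAaaaacatacaaaatgta
Dnmt3a, 5595 nt (chr12:3913313-3913342, plus strand, 18 reads): gttgaagaaatATTAAAaggtcaatgcgta
Dnmt3a, 5745 nt (chr12:3913463-3913492, plus strand, 42 reads): ggactgtttttgtgcaaaaagaaaaacgga
Dnmt3a, 6694 nt (chr12:3914412-3914441, plus strand, 52 reads): cttcAATAAAcatctttatgttttggcttc
Dnmt3b, 1325 nt (chr2:153687695-153687724, plus strand, 246 reads): acctttctggttgATTAAAgttgtatttct

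The hexamer began 23 nt before the end at the Dnmt3a site at 1250 nt, 19 nt before it at 5595 nt, 26 nt before it at 6694 nt and 17 nt before it in Dnmt3b. The site at 5745 nt held neither hexamer in this window. The 4 Dnmt3a windows shown do not represent all 10 sites. Both hexamers were searched on the transcript strand, where their matches may overlap. Of 12154 transcript models with at least 30 reads, 57.6% had AATAAA and 15.4% ATTAAA in the last 30 bases of their model. The 20 bases after the site at 5745 nt held 14 A, where an oligo(dT) adapter could also anneal inside a transcript. The 20 bases after the proximal sites at 95 and 2570 nt held 8 A each, and the 30 bases before the end at 2570 nt closed with a run of A. The median called tail at the site at 5745 nt was 153 nt, and the part of such annealing in the reads of these sites was not tested.

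A gap without sites lies between 2570 and 5595 nt after the stop codon, and reads were split there, at 5000 nt, after the positions had been seen. The share of Dnmt3a reads with a distal end was 29.0%, 21.7% and 24.2% in the D0 libraries (20 of 69, 15 of 69 and 15 of 62 reads). It was 28.6%, 14.3% and 14.3% at D2, 16.7%, 53.8% and 66.7% at D4, and 38.1%, 47.5% and 48.3% at D6. All D6 libraries lay above all D0 libraries. At D4 replicates 2 and 3 did so as well, and replicate 1, with 6 reads, lay below.

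The mean distal share was 25.0% ± 3.69 at D0 and 44.6% ± 5.67 at D6 (SD, n = 3 each), a difference of 19.7 percentage points with an exact permutation p = 0.1, the smallest this design allows. D4 against D0 differed by 20.8 points (exact permutation p = 0.4), or by 35.3 points without D4 replicate 1, which had 6 reads, and by 10.3 without D4 replicate 3. The difference of D2 against D0 was -5.93 points (exact permutation p = 0.3), on 28 reads at D2. With reads pooled by day, 50 of 200 (25.0%, 95% Clopper-Pearson interval 19.2 to 31.6) ended distally at D0, 27 of 50 (54%, 39.3 to 68.2) at D4 and 41 of 90 (45.6%, 35 to 56.4) at D6, intervals that cover counting error only. Seen as levels, Dnmt3a reads with a proximal end went from 105 ± 11.1 CPM at D0 to 43.5 ± 2.81 at D6, a pooled ratio of 0.416 (counting interval 0.295 to 0.578), whereas reads with a distal end were at 35.6 ± 11 and 35.3 ± 5.93 (ratio 1.04, 0.673 to 1.61). At D2 both were low, with ratios to D0 of 0.394 and 0.257. The site at 5595 nt had 2 reads at D0, none at D2, 6 at D4 and 10 on D6.

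**Figure D3:**
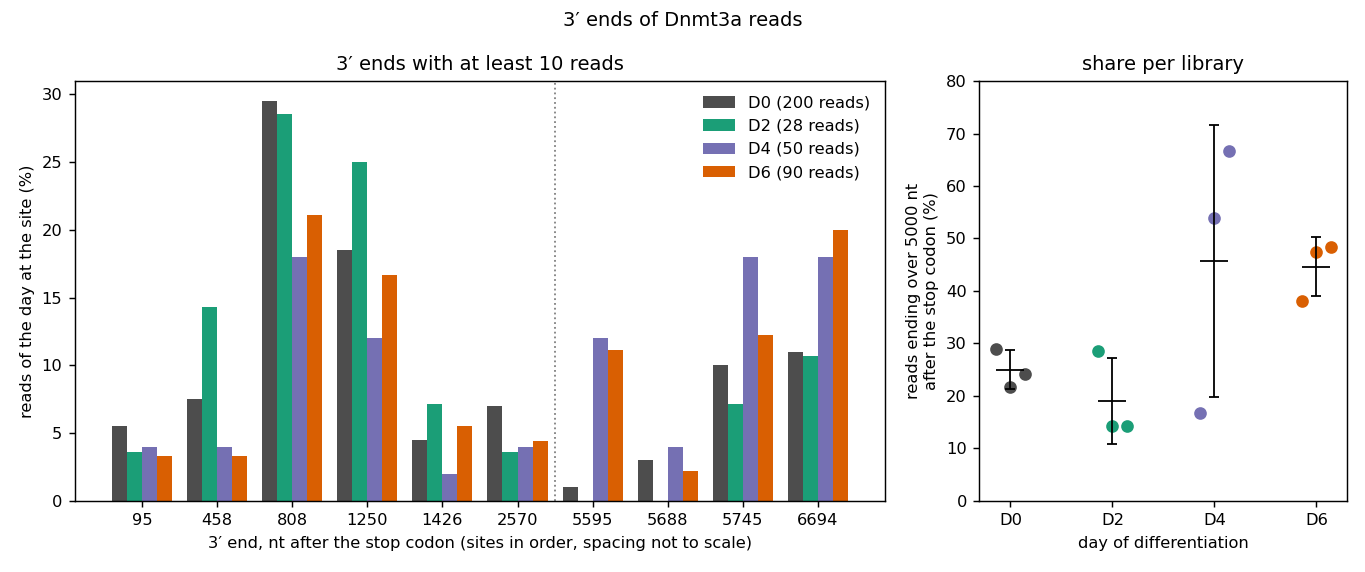
Left, share of the Dnmt3a reads of a day (y axis, percent, reads of 3 libraries pooled) at each 3′ end with at least 10 reads (x axis, nt after the stop codon, in order and not to scale), the dotted line marking the split at 5000 nt. Right, share of Dnmt3a reads ending beyond the split in each library (points) with the mean ± SD of 3 libraries; the D6 libraries lie between 38.1% and 48.3% and the D0 libraries between 21.7% and 29.0%.

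Read starts gave little on the 5′ ends of Dnmt3a. The gene makes a long form and a short form with its own promoter, the latter being known from embryonic cells. The median aligned length of Dnmt3a reads was 1206 nt, and few reached the distinguishing exons. Of 368 reads, 17 reached exons upstream of the first exon of the short form (8 at D0, 1 at D2, 5 at D4 and 3 on D6), and 4 began within that exon (2 at D0 and 2 at D6), so both forms were seen and their balance could not be compared between days at this depth.

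Transcript assignments were ambiguous for most reads. The aligner's mapping quality was 0 for 99.8% of Dnmt1, 97.0% of Dnmt3a, 95.5% of Dnmt3b and 99.7% of Uhrf1 reads, while all 31 Tet3 reads had a quality of at least 10. In the fit per transcript 16 transcripts of the set had at least 30 reads, and 6 were called at D6 against D0, all lower, against 15.0% of all 12356 transcripts tested. They were 4 of Dnmt3b, with log2 fold changes from -4.15 to -3.15, 1 of Tet1 (ENSMUST00000050826.13, -2.46) and 1 of Dnmt3a (ENSMUST00000174817.7, -1.17, limma adjusted p = 0.00722). The call of the latter was lost in limma-trend, without D0 replicate 1 and without D6 replicate 2, and the Tet1 transcript was lost or had under 30 reads in limma-trend, without D0 replicate 1 or 2 and without D6 replicate 2. Of the Dnmt3b models, only ENSMUST00000109772.7 was called without D0 replicate 1. None was called without D0 replicate 2, without D0 replicate 3 or in thinned libraries. The 4 called Dnmt3b models had 29 of 33, 30 of 33, 30 of 31 and 34 of 41 reads at D0, and the Tet1 model 24 of 36. These models reached 30 reads only through D0, which favours a lower call. The remaining Dnmt3a models with enough reads were ENSMUST00000020991.14 (-0.70, limma adjusted p = 0.0545) and ENSMUST00000111186.7 (0.19, adjusted p = 0.806). The former was called when at least 100 reads were required. The reads of Dnmt3b were spread over 9 transcript models and those of Uhrf1 over 4, and none of the 4 Uhrf1 models was called on its own.

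Poly(A) tails could be tested in Dnmt1, Dnmt3a and, in the fit across genes, Uhrf1, and no change in their length was called, whereas Dnmt3b and the Tet genes had too few reads at the later days. Dnmt1 tails had medians of 119, 118 and 139.6 nt in the D0 libraries and 145, 159 and 125 nt at D6. Dnmt3a tails had medians of 112, 109.8 and 117 nt at D0 and 139.5, 145 and 99 nt at D6. The days overlapped for both genes, with differences of 17.7 nt (exact permutation p = 0.2) and 15.1 nt (exact permutation p = 0.4), in a design where p cannot go below 0.1. Single libraries moved both: without D6 replicate 2 the differences were 9.71 and 6.37 nt, and without D6 replicate 3 they were 26.7 and 29.6 nt. For Dnmt3a it was 9.31 nt without D6 replicate 1. The Dnmt3a values mix reads with proximal and distal 3′ ends, whose shares differed between D0 and D6. With reads pooled by day, proximal ends had medians of 109 nt at D0 and 105 nt at D6. Distal ends had 129 and 141 nt, and the ends were not tested apart. In the limma fit of the mean log2 tail over 4559 genes, the D6 against D0 changes of Dnmt1, Dnmt3a and Uhrf1 were 0.16 ± 0.10, 0.13 ± 0.11 and 0.06 ± 0.14 on the log2 scale (adjusted p = 0.432, 0.599 and 0.865), beside a median of 0.06 over all genes. Without D6 replicate 2 the changes of Dnmt3a and Uhrf1 turned to -0.06 and -0.07, and without D6 replicate 3 that of Dnmt3a was 0.24. None of the 3 was called on any day, where limma called 2.3% of all genes at D2, 3.62% at D4 and 5.22% at D6. In a limma fit of the mean tail in nt, Dnmt1 was longer by 20.04 ± 7.58 nt at D6 (unadjusted p = 0.0121, adjusted p = 0.0992) and Uhrf1 by 23.2 ± 10.2 nt at D4 (unadjusted p = 0.0289, adjusted p = 0.366), and no member was called there either.

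Uhrf1 and Dnmt1 had long tails among the genes of these cells. At D0 the mean Uhrf1 tail was 154 nt and that of Dnmt1 139.8 nt, and 97.5% and 90.4% of 5972 genes with at least 30 reads had a shorter mean. The de novo genes lay near the middle, with 115 nt for Dnmt3a and 119.6 nt for Dnmt3b beside a median of 117 nt over genes. Tet1 stood close to Dnmt1 at 139 nt on 38 reads, and 89.7% of genes had a shorter mean. No Dnmt1 and no Uhrf1 read had a tail under 30 nt on any day, which for the 438 and 301 reads of all days is set beside 11 of 200 Dnmt3a reads (5.5%) and 11 of 228 Dnmt3b reads (4.82%) at D0 and 1.87% to 2.62% of all kept reads in the D0 libraries. On the later days Dnmt3a had 0 of 28 such reads at D2, 1 of 50 at D4 and 6 of 90 at D6. Tet1 had 0 of 38 at D0. Tails from 30 to 90 nt made up 24.1% ± 6.00 of Dnmt1 reads at D0 and 22.4% ± 3.68 at D6, and 28.1% ± 3.85 and 24.5% ± 8.65 of Dnmt3a reads (SD, n = 3 each; exact permutation p = 0.6 for each gene). In Uhrf1 they made up 14.2% ± 1.29 at D0 and 8.57% ± 2.24 at D6, with no test since 1 D6 library had 9 reads.

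**Figure D4:**
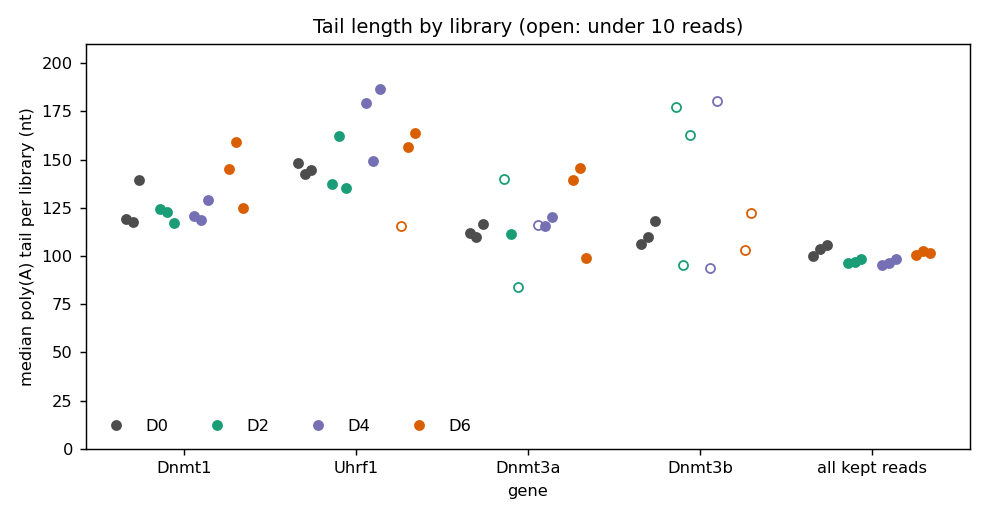
Median poly(A) tail in nt (y axis, from 0) of Dnmt1, Uhrf1, Dnmt3a, Dnmt3b and all kept reads (x axis) in each library, coloured by day, with open points where a library had under 10 reads. The Uhrf1 points at D0 lie between 143 and 148 nt, and those of all kept reads between 100.2 and 106 nt.

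The genes around the set were taken from 5 lists. Among 29 genes of DNA replication and S phase, when maintenance methylation acts, 18 were lower and none higher at D6 (median log2 fold change -0.57, that of all genes being close to 0), beside 18.8% and 19% of all genes, against 7 lower and 1 higher at D4 (12.5% and 12.9% of all genes) and 5 higher at D2 (4.69% of all genes). Cdt1, a replication licensing factor, fell from 180.0 ± 16.4 to 44.9 ± 3.73 CPM (log2 fold change -1.97 ± 0.23, limma adjusted p = 8.79e-11), and Mcm6, a subunit of the replicative helicase, from 326 ± 3.36 to 132 ± 5.77. The helicase subunit Mcm3 fell as well (-1.03 ± 0.16). The fall of Uhrf1 at D6 moved with these genes, and their part in it was not tested.

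Of 23 tested recruiters and cofactors, 5 were higher and 5 lower at D6 (median 0.22), which is near the 19% and 18.8% of all genes. Hells, the chromatin remodeller that helps methylation of repeats, fell by 1.70 ± 0.25 on the log2 scale, from 138 ± 24.3 to 39.9 ± 9.04 CPM (limma adjusted p = 8.49e-08). Trim28, the corepressor that guards imprints and silenced repeats, fell by 0.81 ± 0.13 (adjusted p = 5.18e-07), while Zfp57, which directs it to imprinted regions, rose by 2.41 ± 0.46 (limma adjusted p = 1.73e-05) from 12.4 to 56.9 CPM. Cxxc4, a CXXC protein described as an antagonist of Tet2, rose by 1.85 ± 0.48 (adjusted p = 0.00135).

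Of 8 tested methyl-CpG readers, 2 were higher and none lower at D6 (median 0.48), beside 19% of all genes called higher and 18.8% lower. The called readers were Mbd1 (1.91 ± 0.44, limma adjusted p = 0.000356) and Zbtb33, also called Kaiso (1.56 ± 0.47, adjusted p = 0.00577). Mbd6 stood at 21.3 ± 4.21 CPM at D0 and 34.7 ± 10.7 at D6 (limma adjusted p = 0.123).

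Among 12 tested genes of base excision repair and of the Gadd45 family, which are linked to active demethylation, 4 were higher and 2 lower at D6 (median 0.07), beside 19% and 18.8% of all genes. Gadd45g rose from 5.72 ± 1.85 to 139 ± 44.0 CPM (log2 fold change 4.33 ± 0.50, limma adjusted p = 1.17e-10) and was already higher at D2 (2.69, adjusted p = 0.000695). The uracil glycosylases went in opposite directions: Smug1 rose by 3.52 ± 0.39 (adjusted p = 2.83e-11) and Ung fell by 2.93 ± 0.43 (limma adjusted p = 6.18e-08). Polb, the gap-filling polymerase of this repair path, rose by 1.08 ± 0.28. Tdg, the glycosylase that removes the oxidized products of the TET enzymes, was lower on each day, by a log2 fold change of -0.84 at D2, -0.62 at D4 and -0.39 at D6 (limma adjusted p = 0.00299, 0.00277 and 0.0426), and was named for this role after its values were seen.

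Of 8 genes of the methyl donor cycle, 3 were lower and none higher at D6 (median -0.50), beside 18.8% and 19% of all genes. Ahcy, which clears S-adenosylhomocysteine, the product that inhibits methyltransferases, fell from 97.3 ± 9.75 to 24.3 ± 12.2 CPM (log2 fold change -1.99 ± 0.32, limma adjusted p = 4.8e-07). Mtap fell by 1.02 ± 0.21 and the methionine synthase Mtr by 1.58 ± 0.58 on the same scale (limma adjusted p = 5.79e-05 and 0.0246).

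**Figure D5:**
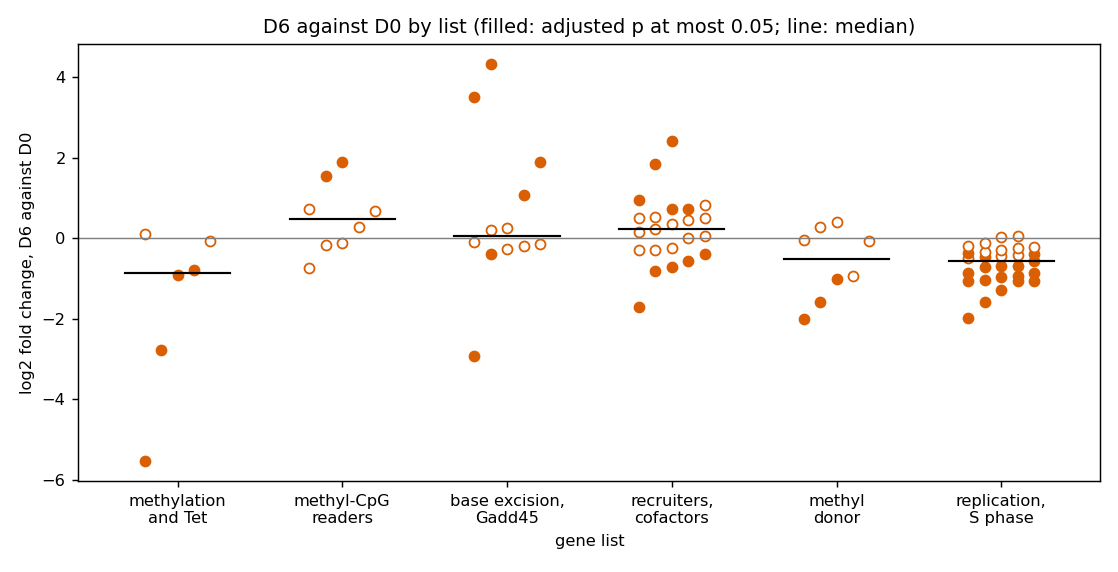
Log2 fold change of D6 against D0 (y axis) for the tested genes of the set and of 5 surrounding lists (x axis), 1 point per gene, filled where the adjusted p is at most 0.05, with a line at the median of the list. The lowest point is Dnmt3b at -5.54 and the highest Gadd45g at 4.33.

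The genes whose levels ran most like those of the set were found by Pearson's r of log2 CPM over the 12 libraries, among 5664 genes with at least 100 reads. For Dnmt3b they included Slc16a3 (0.95) and Prps1 (0.95), where r is largely set by D0 against the later days. For Uhrf1 they included Lsr (0.95) and Pctp (0.92), and for Dnmt3a Ap2a1 (0.92), Lsm12 (0.91) and Apeh (0.90). For Dnmt1 they were Ilrun (0.85), Dtl (0.83) and Memo1 (0.82). These values describe 12 libraries that share their day and run.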

How the data were processed

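Per the study's methods and processing notes, the authors used Guppy for base calling, minimap2 2.20 for alignment to GENCODE transcripts on mm10, and Nanopolish for tail lengths. Their deposited table holds, per alignment, the tail length in nt, the mapping quality as a score and the barcode confidence as a fraction. A deposited table of DESeq2 log2 fold changes and adjusted p-values was not used.

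Reads tagged PASS and classed as mRNA were tallied per gene, without mitochondrial genes and pseudogenes. A count of 0 was read as up to 3 reads. limma 3.58.1 (voom, pseudocount 0.5 reads, day as the only term, all 12 libraries, own trimmed-mean scaling with 30% and 5% trimmed) was fitted to genes with at least 30 reads and Benjamini-Hochberg adjusted at 0.05. The edgeR fit reserved for deposited counts was not run, because these tallies were made here. Tails were fitted with limma on genes with at least 3 reads in every library. For single values, exact permutation tests over libraries were used, two-sided. Intervals are 95% Clopper-Pearson. The fits were also run on simulated data.

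All 27 transcripts of the set with reads had the same coordinates in the reference annotation used (GENCODE vM21). The members, lists and rule for named genes (the 8 members, up to 4 genes per list with the smallest adjusted p at D6, and the 3 genes with the highest r for members with at least 100 reads) were chosen with earlier results of these data known. The analysis of 3′ ends was added after the data were seen. Some items that the rule named are not reported here.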

Additional observations from a re-analysis of the deposited data

How the results depend on the processing

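Without scaling, 2588 genes were called higher and 1162 lower at D6 against D0, in place of 1765 and 1751, with 720 and 373 at D2 and 1537 and 921 at D4. In the same order of directions limma-trend called 1050 and 1159 genes at D6, 686 and 563 at D4 (voom 1199 and 1165) and 69 and 232 at D6 against D4 (voom 376 and 409), and thinned libraries 539 and 668 at D6. The calls of Dnmt3a, Dnmt3b, Tet1 and Uhrf1 kept their direction under every alternative that tested them. Ambiguous alignment limited the alternative with mapping quality at least 10, since 437 of 438 Dnmt1 and 300 of 301 Uhrf1 reads had a quality of 0. Only 1 member (Tet3) had enough reads, so that alternative tested 1 gene and left no tail values. It called 0 transcripts, and 0 members in each comparison where limma-voom had called any (D2, D4 and D6 against D0, D6 against D4). With every library thinned to the smallest, 1 member was called at D6 against D0 (Dnmt3b), 0 at D6 against D4, and 1 transcript at D6. Under limma-trend on log2(CPM + 0.5), 1 member was called at D2 (Dnmt3a) and 0 at D6 against D4. It also ended the calls of Tet1 at D4 and D6 (adjusted p = 0.0666 and 0.0637). Without a filter, 0 members were called at D6 against D4 and 11 transcripts at D6. A minimum of 100 reads called 2 transcripts, and a barcode confidence of at least 0.75, chosen after seeing the data, called 3.

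Deviations from the day means showed no pairing by replicate number, with correlations from -0.085 to 0.096 for same-numbered libraries and from -0.128 to 0.115 for the others. At this depth such values cannot exclude a pairing. With the replicate block, Dnmt3b was called at D4 against D2 (1 member in place of 0; -2.00 on the log2 scale, limma adjusted p = 0.0393) and Dnmt3a was not at D6 against D4 (0 members; adjusted p = 0.059); the block ended or added no other member call.

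Leaving out each replicate in turn gave 0 to 1 members at D6 against D4 and 1 to 6 transcripts at D6 (1 without D0 replicate 1 or 2, 2 without D0 replicate 3), where 10 or 11 of the 16 transcripts kept 30 reads without a D0 replicate. It changed no member count in the comparisons with D0, where 2, 3 and 4 members were called each time. The D6 against D0 difference in the share of tails from 30 to 90 nt in Dnmt1 ranged from -5.16 to 0.475 points, so its sign is not set. That of Dnmt3a was 0.824 points with limits of 35 and 95 nt, and its share under 35 nt differed by -0.324 points, both against the sign with limits of 30 and 90 nt. The difference in the distal share of Dnmt3a at D6 ranged from 17.8 to 22.9 points without 1 replicate (at D4 from 10.3 to 35.3, both chosen after seeing the data), and was 17.0 points with the split at 2000 nt, 20.6 without the site before the A-rich stretch and 23.8 on reads of the transcript that holds every site. The A-rich stretch was that of the distal site at 5745 nt, and no proximal site was left out. The cause was not tested for any of these.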
